A study of Caenorhabditis elegans with 24 samples.

Results

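The 10 genes described here encode cysteine cathepsins of the gut and lysosome of the nematode Caenorhabditis elegans: the cathepsin B-like genes cpr-1, cpr-2, cpr-3, cpr-4, cpr-5, cpr-6, cpr-8 and cpr-9, the cathepsin L gene cpl-1 and the cathepsin Z gene cpz-1. They were chosen by name, with earlier results of these data known. A probe set counted where the array annotation gave a member as its only gene symbol, and where a gene had several probe sets the one of highest mean stood for it. All 10 were on the array, out of 17118 genes with a probe set of their own. All 10 were also among the 12277 genes tested, which had a log2 intensity above 4 on at least 3 arrays.

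Cysteine cathepsins are proteases of the papain family, which cut peptide bonds with a cysteine in the active site and are made as inactive precursors. In lysosomes they degrade proteins delivered by endocytosis and autophagy, and in nematodes many of them are made in the intestine, where they digest food protein. Cathepsin L is needed in the embryo for the processing of yolk, and cathepsin Z takes part in moulting. Their natural inhibitors include the cystatins. TOR is the kinase that couples nutrient supply to growth and restrains autophagy, and Rheb is the small GTPase that activates it.

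Total RNA of wild-type N2 worms, 5 µg per sample, was read on 24 Affymetrix C. elegans arrays, 1 sample per array. All worms were grown at 20 °C on plates for RNA interference (RNAi), in which double-stranded RNA lowers the matching transcript without removing the gene, and all were at day 4 of adulthood. The 6 groups were worms on plates against TOR (Cel-TOR RNAi), fasted for 48 h (3 arrays) or fed ad libitum (3 arrays), worms on plates against Rheb (Cel-Rheb RNAi), fasted (4 arrays) or fed (4 arrays), and worms on control RNAi plates, fasted (5 arrays) or fed (5 arrays). The labels call the arrays of a group biological replicates and do not say how cultures were kept apart, so the p-values below measure the spread between these samples.

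Values are GCRMA intensities, a background-corrected and normalised probe set brightness on a linear scale, and a change is a difference of group means of log2 intensity with its standard error (SE). Rose, fell, higher and lower are used where limma, fitted to all 24 arrays and 12277 genes, gave a Benjamini-Hochberg adjusted p under 0.05. Median intensity was 46.9 to 58 on the 24 arrays, and the number of arrays limits the precision. The RNAi targets were lower on their own plates: let-363, the TOR gene, by log2 -1.44 ± 0.14 (fasted) and -1.45 ± 0.14 (fed), and the dimmer of 2 rheb-1 probe sets by -1.85 ± 0.28 (fasted) and -2.55 ± 0.28 (fed). The brighter rheb-1 probe set, at -0.50 and -0.30, was not called.

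Fasting lowered most of the 10 transcripts on each kind of plate. In fasted TOR RNAi worms 9 of the 10 fell, where 5.16% of all genes tested fell, 1.08% rose and 6.24% changed. In fasted Rheb RNAi worms 9 fell, where 8.67% of all genes fell, 3.23% rose and 11.9% changed. In fasted control worms 8 fell and 1, cpr-2, rose, where 7.91% of all genes fell, 11% rose and 18.9% changed. The median change over the 10 genes was -3.14 under TOR RNAi, -3.08 under Rheb RNAi and -1.48 in control worms, and the medians over all genes were 0.08, 0.09 and 0.04. cpz-1 was not called on any plate.

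Arrays of the 2 feeding states did not overlap for 9 of the 10 genes under TOR RNAi, 9 under Rheb RNAi and 8 in control worms, and the shares of all genes without overlap were 23.5%, 14.6% and 12.5%. Where same-numbered arrays were treated as pairs, with TOR numbers apart from the others, the same members were called in each fasting comparison. In that setting 14.4%, 31.1% and 38.3% of all genes were called under TOR, Rheb and control RNAi. In RNA of many cells, a smaller share of RNA from the intestine and less of a transcript within it cannot be told apart. The summed intensity of 11 intestine marker genes was 8620 to 9783 in fasted and 13840 to 17150 in fed TOR RNAi worms, 8685 to 10410 and 11810 to 15860 in fasted and fed Rheb RNAi worms, and 9951 to 15940 and 12980 to 16750 in fasted and fed control worms. None of the 11 was at 0, but an intensity whose log2 is taken cannot be 0, so this does not show detection. The part of these markers in the cathepsin values was not tested.

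**Figure D1:**
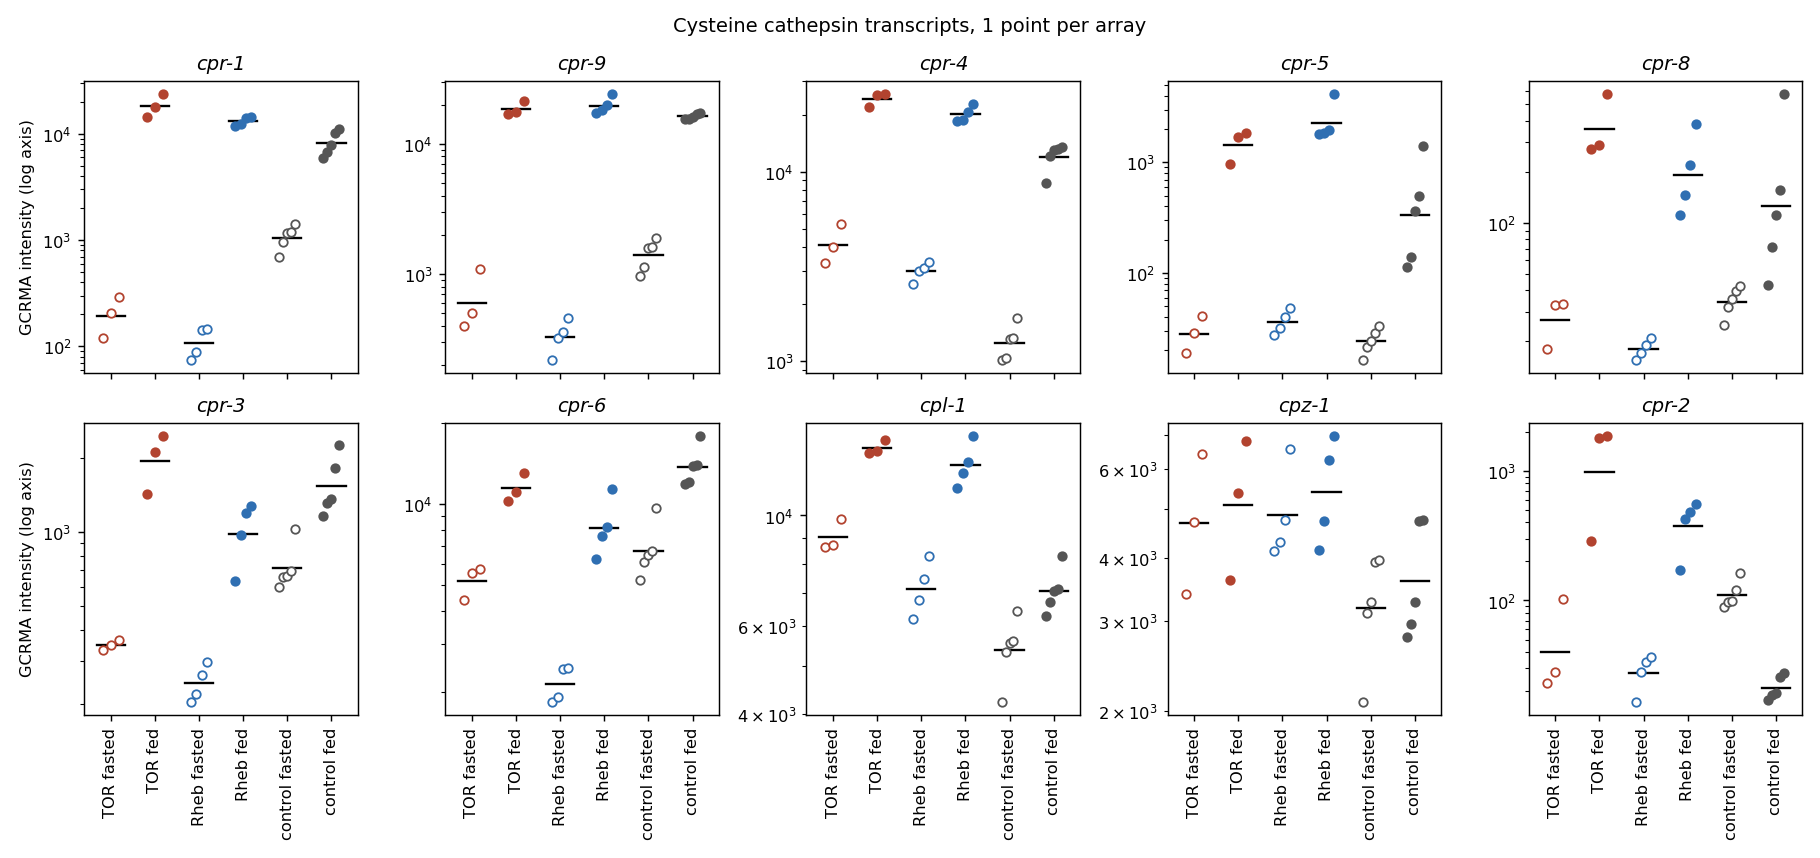
GCRMA intensity (log axis, different for each panel) of the 10 cysteine cathepsin genes on each of 24 arrays, open circles for fasted and filled circles for fed worms, in red for TOR, blue for Rheb and grey for control RNAi, with a bar at the mean of the log2 values of each group. Fasted worms lie far below fed worms for cpr-1, cpr-9, cpr-4 and cpr-5 on every kind of plate. cpz-1 differs little between fasted and fed worms of a plate, and cpr-2 is the gene for which fasted control worms lie above fed control worms.

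cpr-1, a cathepsin B-like gene expressed in the gut, had the widest span, 169.1-fold between the highest and the lowest group mean. Under TOR RNAi cpr-1 read 119, 207 and 294 in fasted worms, against 14484, 17897 and 23593 in fed worms. Under Rheb RNAi cpr-1 read 75.1, 88.6, 146 and 141 in fasted worms, against 12507, 11941, 14550.3 and 14176 in fed worms. On control RNAi cpr-1 read 1164, 1200.3, 694, 964 and 1419 in fasted worms, against 10136, 7871, 6748, 5974 and 11217 in fed worms. Every fasted array lay below every fed array. The transcript stood at 1.06% of fed in TOR RNAi worms, 0.816% in Rheb RNAi worms and 13% in control worms, a log2 change of -6.56 ± 0.32, -6.94 ± 0.27 and -2.95 ± 0.25 (limma, adjusted p = 2.03e-12, 4.6e-14 and 8.94e-09).

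cpr-9, a cathepsin B-like gene separated from cpr-1 by 8 protein-coding genes in the WBcel235 annotation, followed the same order of groups within the fasted worms. Under TOR RNAi cpr-9 read 399.9, 500.3 and 1091 in fasted worms, against 16785, 17532 and 21464 in fed worms. Under Rheb RNAi cpr-9 read 221, 326, 458 and 362 in fasted worms, against 17229.6, 18122, 23967 and 19797 in fed worms. On control RNAi cpr-9 read 1903, 1587, 1625, 1131 and 968 in fasted worms, against 17347, 15412, 16191, 15613 and 16949 in fed worms. The fed arrays of the 3 plates were close to each other and the fasted arrays were not. Fasted worms kept 3.26%, 1.69% and 8.60% of the fed level under TOR, Rheb and control RNAi (log2 -4.94 ± 0.29, -5.89 ± 0.26 and -3.54 ± 0.23, limma adjusted p = 5.85e-11, 1.57e-13 and 1.73e-10).

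cpr-4 encodes a secreted cathepsin B-like protease. Under TOR RNAi cpr-4 read 3299, 4016 and 5286 in fasted worms, against 25630.4, 22018 and 25400.3 in fed worms. Under Rheb RNAi cpr-4 read 3349.9, 2979, 3092 and 2556 in fasted worms, against 18445, 20634, 22755 and 18803 in fed worms. On control RNAi cpr-4 read 1327, 1314, 1017, 1031 and 1681 in fasted worms, against 13003, 13581, 12143, 8727 and 13162 in fed worms. Both feeding states were brighter under either knockdown than on control plates, with no overlap. Fasting lowered cpr-4 to 17%, 14.8% and 10.4% of fed under TOR, Rheb and control RNAi (log2 -2.56 ± 0.20, -2.75 ± 0.17 and -3.26 ± 0.15, limma adjusted p = 3.05e-09, 5.53e-11 and 1.38e-12).

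cpr-5 and cpr-8 are cathepsin B-like genes that lie next to each other. Under TOR RNAi cpr-5 read 19, 28.7 and 41.2 in fasted worms, against 969, 1826 and 1698 in fed worms. Under Rheb RNAi cpr-5 read 39.9, 31.7, 27.4 and 48.1 in fasted worms, against 1804, 4121, 1849 and 1943 in fed worms. On control RNAi cpr-5 read 33.6, 28.8, 16.5, 21.5 and 24.3 in fasted worms, against 141, 361, 113.1, 1405 and 498 in fed worms. All 12 fasted arrays were at 48.1 or below, near or under the array medians, so the size of the fall is limited by dim signals. Fed control worms ran from 113.1 on replicate 3 to 1405 on replicate 4, wider than any other group of this gene. The log2 change with fasting was -5.68 ± 0.60, -5.98 ± 0.52 and -3.78 ± 0.47 under TOR, Rheb and control RNAi (limma, adjusted p = 4.2e-07, 1.31e-08 and 2.52e-06).

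Under TOR RNAi cpr-8 read 17.9, 32.6 and 33.3 in fasted worms, against 273, 572 and 286 in fed worms. Under Rheb RNAi cpr-8 read 15.6, 17, 19.1 and 21.1 in fasted worms, against 111, 146, 218 and 380.2 in fed worms. On control RNAi cpr-8 read 25, 31.7, 39.7, 42.3 and 35.8 in fasted worms, against 42.8, 156, 72.1, 572 and 111 in fed worms. Fed control replicate 4 was again the brightest of its group and replicates 1 and 3 were the dimmest, as for cpr-5. The brightest fasted control array (42.3) lay just below the dimmest fed one (42.8). cpr-8 fell by a log2 change of -3.72 ± 0.59, -3.40 ± 0.51 and -1.87 ± 0.46 under TOR, Rheb and control RNAi (limma, adjusted p = 0.000135, 4.24e-05 and 0.00591).

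cpr-3, a further cathepsin B-like gene, is read by a pair of probe sets of a type that can also pick up related transcripts. Under TOR RNAi cpr-3 read 364, 346 and 332 in fasted worms, against 2450.0, 1430.4 and 2122 in fed worms. Under Rheb RNAi cpr-3 read 204, 295, 219 and 261 in fasted worms, against 974, 1196, 1272 and 635 in fed worms. On control RNAi cpr-3 read 696, 596, 1026, 656 and 665 in fasted worms, against 2266, 1359, 1817, 1309 and 1161 in fed worms. The states were separate on each kind of plate. The log2 change was -2.49 ± 0.27, -2.02 ± 0.23 and -1.1 ± 0.21 under TOR, Rheb and control RNAi (limma, adjusted p = 5.33e-07, 9.24e-07 and 0.000485), and the other cpr-3 probe set gave -2.43, -2.28 and -1.25.

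cpr-6 encodes a cathepsin B. Under TOR RNAi cpr-6 read 4378, 5516 and 5709 in fasted worms, against 10294, 11091 and 13100.0 in fed worms. Under Rheb RNAi cpr-6 read 1914, 1834, 2439 and 2444 in fasted worms, against 8199, 6219, 11374 and 7596 in fed worms. On control RNAi cpr-6 read 6660.4, 5230.0, 9701, 6476 and 6068 in fasted worms, against 13952, 11886, 17868, 12047 and 13914 in fed worms. Fasted Rheb RNAi worms were below every other array of this gene. cpr-6 fell to 45.2%, 26.2% and 48.5% of fed under TOR, Rheb and control RNAi (log2 -1.15 ± 0.22, -1.93 ± 0.19 and -1.05 ± 0.17, limma adjusted p = 0.00124, 1.07e-07 and 0.000107).

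cpl-1, the cathepsin L gene that worms need for embryonic development, moved less. Under TOR RNAi cpl-1 read 8745, 8636 and 9862 in fasted worms, against 14160.3, 13319.9 and 13448 in fed worms. Under Rheb RNAi cpl-1 read 8308, 6196, 6772 and 7447 in fasted worms, against 12167, 12787, 14398 and 11345 in fed worms. On control RNAi cpl-1 read 5558, 4236, 6439, 5609.7 and 5325 in fasted worms, against 7141, 7059, 8309, 6304 and 6705 in fed worms. Fasted and fed worms were separate under both knockdowns and overlapped on control plates at fasted replicate 3 and fed replicate 4. The log2 change was -0.59 ± 0.15, -0.82 ± 0.13 and -0.39 ± 0.12 under TOR, Rheb and control RNAi (limma, adjusted p = 0.0157, 7.56e-05 and 0.0202). The control call was lost without fed replicate 3 or fasted replicate 2 (-0.34 to -0.31, adjusted p = 0.0658 to 0.0694), and the TOR call without TOR fed replicate 1 or TOR fasted replicate 1 or 2 (-0.56 to -0.55, adjusted p = 0.0649 to 0.0728). Both calls were also lost with the mean of all probe sets of a gene (-0.34 for control and -0.36 for TOR RNAi, adjusted p = 0.0744 and 0.301). With only the compared arrays fitted the control call was lost (adjusted p = 0.0678). The TOR call was lost without the 2 arrays of highest 3′ to middle signal ratio (adjusted p = 0.0678). Both cpl-1 probe sets are of types that can also read related transcripts, as are the probe sets of cpr-5 and cpz-1. The dimmer one gave -0.14, -0.47 and -0.28 under TOR, Rheb and control RNAi and was called on none.

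cpz-1, the cathepsin Z gene, was the member called on no kind of plate. Under TOR RNAi cpz-1 read 6401, 3403 and 4712 in fasted worms, against 6789, 3624 and 5365 in fed worms. Under Rheb RNAi cpz-1 read 6553, 4136, 4760.1 and 4295 in fasted worms, against 6248, 4738, 6944 and 4146 in fed worms. On control RNAi cpz-1 read 3933, 2083, 3968, 3113 and 3269 in fasted worms, against 4755, 3272, 4728, 2800.2 and 2967 in fed worms. The fasted and fed arrays overlapped on every kind of plate. The log2 difference was -0.12 ± 0.29, -0.16 ± 0.25 and -0.18 ± 0.23, with 95% intervals of -0.73 to 0.49, -0.68 to 0.37 and -0.65 to 0.29 under TOR, Rheb and control RNAi.

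cpr-2, a cathepsin B-like gene, rose in fasted control worms, where 8 other members fell. Under TOR RNAi cpr-2 read 22.9, 27.8 and 102 in fasted worms, against 1797, 289 and 1838 in fed worms. Under Rheb RNAi cpr-2 read 16.6, 33.3, 36.9 and 28.2 in fasted worms, against 481, 554, 426 and 173 in fed worms. On control RNAi cpr-2 read 98.4, 89.0, 98.2, 120.3 and 162 in fasted worms, against 27.6, 18.8, 19.5, 17 and 25.8 in fed worms. In control worms the dim fed arrays lay below all fasted ones, and on both knockdown plates all fed arrays lay above all fasted ones. cpr-2 rose by 2.38 ± 0.45 in fasted control worms (5.2-fold, limma adjusted p = 0.000476). It fell by 4.61 ± 0.58 in fasted TOR RNAi worms and under fasting on Rheb RNAi plates it fell by 3.76 ± 0.50 (adjusted p = 5.17e-06 and 7.58e-06). The TOR value was -5.50 without TOR fed replicate 2 and -5.28 without TOR fasted replicate 3, and without any 1 array in turn it ran from -5.50 to -4.16. The fed control arrays, at 17 to 27.6, were under the median of their arrays. So were the fasted knockdown arrays, with the exception of TOR fasted replicate 3 (102). This limits how well the cpr-2 folds are known.

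**Figure D2:**
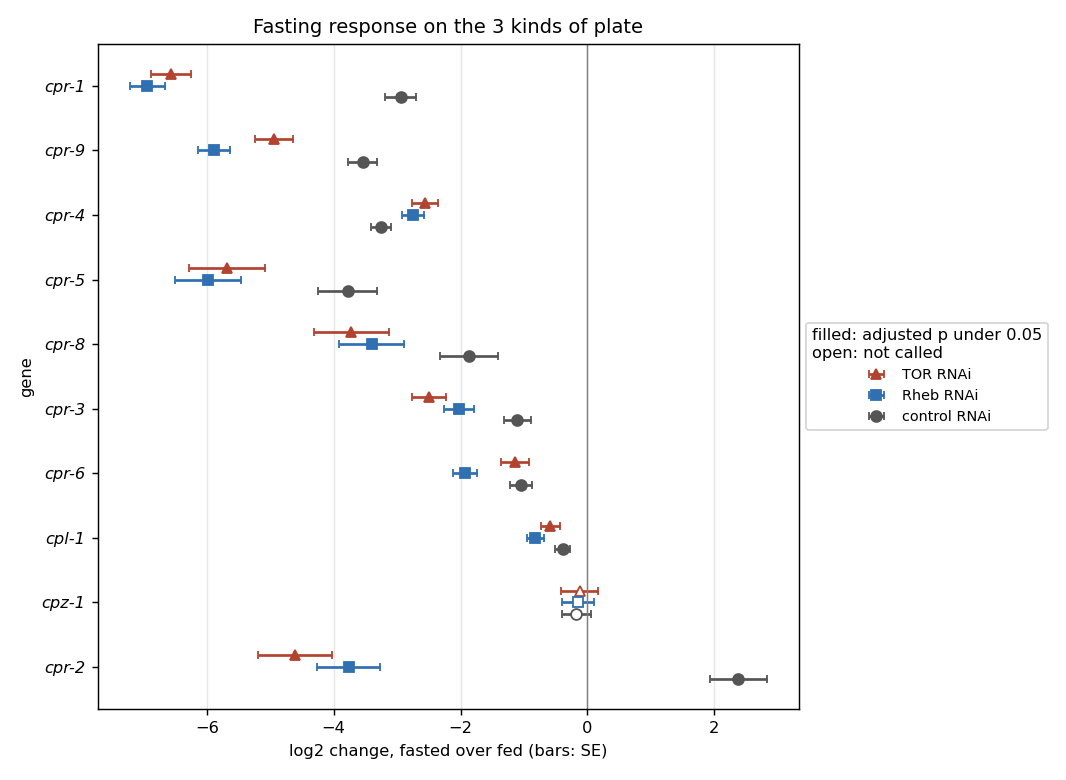
Log2 change of fasted over fed worms for each of the 10 genes under TOR, Rheb and control RNAi, with bars of 1 SE; a filled symbol marks a limma adjusted p under 0.05 and an open one marks none. The 3 cpz-1 symbols are open and near 0, cpr-1 and cpr-9 lie further to the left under either knockdown than on control plates, and cpr-2 is to the right of 0 in control worms only.

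The responses to fasting differed between the plates for some members and not detectably for others. The difference between the Rheb and control RNAi responses, an interaction term in limma, was called for 4 of the 10 genes. Each had the more negative response under Rheb RNAi, where 3.82% of all genes were lower in this term and 4.89% changed. For cpr-1 the responses differed by -3.99 ± 0.37 (adjusted p = 2.31e-07). For cpr-9 the difference was -2.35 ± 0.34 (adjusted p = 0.000106). For cpr-2, whose response changed sign, it was -6.14 ± 0.67 (adjusted p = 2.54e-06). For cpr-6 it was -0.88 ± 0.26 (adjusted p = 0.0483). That call held without control fed replicate 3, control fasted replicate 2, Rheb fed replicate 2, Rheb fasted replicate 3 or Rheb fasted replicate 4, and was lost without any of the other 19 arrays (-0.92 to -0.72, adjusted p = 0.0505 to 0.134). With arrays centred on their medians it was -0.74 (adjusted p = 0.0908). The cpr-6 call was also lost with further quantile normalisation, without the filter and with only the compared arrays fitted (adjusted p = 0.0557 to 0.0819). It was lost too without the 2 arrays of highest 3′ to middle signal ratio (adjusted p = 0.152).

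The TOR and control responses also differed for 4 of the 10 genes, where 1.74% of all genes were lower in this term and 2.44% changed. The fall was the larger under TOR RNAi for cpr-1, cpr-3 and cpr-9, and cpr-2 rose in control worms and fell under TOR RNAi. This term shares its control arrays with the Rheb term. cpr-1 differed by -3.62 ± 0.40, cpr-2 by -6.99 ± 0.73, cpr-3 by -1.39 ± 0.34 and cpr-9 by -1.40 ± 0.37 (limma, adjusted p = 9.79e-06, 4.78e-06, 0.0285 and 0.0459). The cpr-2 difference was -7.88 without TOR fed replicate 2 and -7.66 without TOR fasted replicate 3, and without any 1 array in turn it ran from -7.88 to -6.54. The cpr-3 call was lost without control fasted replicate 3, TOR fed replicate 1 or 3, or any of the 3 TOR fasted arrays (-1.42 to -1.22, adjusted p = 0.05 to 0.102). The cpr-9 call held without control fasted replicate 4 or 5, Rheb fed replicate 3, Rheb fasted replicate 1 or 3, or TOR fasted replicate 3, and was lost without any of the other 18 arrays (-1.47 to -1.11, adjusted p = 0.0527 to 0.191). With arrays centred on their medians neither was called, at -1.26 for cpr-3 and -1.27 for cpr-9 (adjusted p = 0.0525 and 0.0722). Both were also lost without the 2 arrays of highest 3′ to middle signal ratio (adjusted p = 0.0638 and 0.161). The cpr-9 call was lost too with further quantile normalisation, without the filter, and with only the compared arrays fitted (adjusted p = 0.0622 to 0.0684).

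With arrays of one number as a block, and TOR numbers as blocks of their own, further members were called. The block added cpr-3 (-0.92 ± 0.31 without the block, adjusted p with it 0.0342) and cpr-5 (-2.21 ± 0.70 without it, adjusted p with it 0.0224) to the Rheb term, where 17.5% of all genes were then called. In the TOR term it added cpr-4 at 0.70 (adjusted p = 0.0284), a smaller fall under TOR RNAi than on control plates, where 9.11% of all genes were called. In the fit without a block, cpr-5 and cpr-8 depended on fed control replicate 4, the array of its group on which both were brightest. Without that array the Rheb and TOR terms were -2.73 and -2.42 for cpr-5 (adjusted p = 0.00361 and 0.0292) and -2.09 and -2.40 for cpr-8 (0.0171 and 0.0177). With all arrays and no block neither gene was called. cpr-3 was called in the Rheb term without control fed replicate 1 or Rheb fed replicate 4 (-1.06 and -1.13, adjusted p = 0.0423 and 0.0268).

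Between the TOR and Rheb responses limma called 0 of the 10 genes, where 0.318% of all genes were called, and 2 members, cpr-6 and cpr-9, had an unadjusted p under 0.05. The interval of the difference was -0.50 to 1.24 for cpr-1 and -2.43 to 0.74 for cpr-2. For cpr-6 the TOR response was the smaller by 0.78 ± 0.29. This difference passed with TOR numbers as blocks of their own (adjusted p = 0.0215), where 1.28% of all genes were called. It did not pass with a block shared by all plates. For cpr-9 the difference was 0.95 ± 0.39 with an interval of 0.14 to 1.76.

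Among fed worms more members were higher than lower under each knockdown. On TOR RNAi plates 6 of the 10 genes were higher than on control plates and none was lower, where 19.9% of all genes were higher, 13.4% lower and 33.3% changed. On Rheb RNAi plates 5 were higher and 2 lower, where 19.2% of all genes were higher, 13.9% lower and 33.1% changed. These 2 comparisons use the same fed control arrays. The median over the members was 0.98 under TOR RNAi and 0.66 under Rheb RNAi, and over all genes 0.04 and 0.02. Arrays did not overlap for 4 genes under TOR RNAi and 6 under Rheb RNAi, where 37% and 22.1% of all genes did not.

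cpr-2 was the most raised member in fed worms, 46.2-fold under TOR RNAi and 17.5-fold under Rheb RNAi (log2 5.53 ± 0.52 and 4.13 ± 0.47, limma adjusted p = 7.44e-08 and 1.1e-06). Fed TOR RNAi replicate 2, at 289, was far below the other two arrays of its group and still above every fed control array. Without it the TOR value was 6.41, or 85.3-fold, and without any 1 array in turn the value ran from 5.08 to 6.41. cpr-5 rose 4.35-fold under TOR RNAi and 6.85-fold under Rheb RNAi (adjusted p = 0.00443 and 0.000183). The fed control array of replicate 4 overlapped the TOR RNAi arrays of cpr-5 and lay below all Rheb RNAi arrays. cpr-4 rose 2.03-fold and 1.68-fold under TOR and Rheb RNAi (adjusted p = 0.000189 and 0.00133), and cpl-1 1.93-fold and 1.78-fold (adjusted p = 2.07e-05 and 2.57e-05). For both of these genes all knockdown arrays were above all fed control arrays.

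The gut cathepsin gene cpr-1 rose 2.24-fold in fed TOR RNAi worms and 1.62-fold in fed Rheb RNAi worms (limma, adjusted p = 0.00328 and 0.0424). The Rheb call was lost without control fed replicate 2, 3 or 4 or Rheb fed replicate 1, 3 or 4 (0.59 to 0.73, adjusted p = 0.0668 to 0.106), and with arrays centred on their medians (0.53, adjusted p = 0.0961). It was lost too without the filter (adjusted p = 0.0574) and without the 2 arrays of highest 3′ to middle signal ratio (0.65, adjusted p = 0.105). cpr-8 was called only under TOR RNAi (1.51 ± 0.53, adjusted p = 0.0331), and not without control fed replicate 1 or 3 or TOR fed replicate 2 or 3 (1.12 to 1.66, adjusted p = 0.0611 to 0.158) or with arrays centred (1.32, adjusted p = 0.0526). With only the compared arrays fitted this cpr-8 call was lost as well (adjusted p = 0.113). Under Rheb RNAi cpr-8 stood at 0.61 ± 0.49, and without fed control replicate 4 at 1.16 with an adjusted p of 0.0205. cpr-9 was at 0.18 ± 0.26 and 0.27 ± 0.24 under TOR and Rheb RNAi and was called in neither, and with arrays centred on their medians the TOR value was -0.0031. The genes that ran the other way in fed worms were cpr-3 and cpr-6. On Rheb RNAi plates cpr-6 fell by 0.76 ± 0.18 and cpr-3 fell by 0.64 ± 0.22 (adjusted p = 0.00279 and 0.029). The cpr-3 call was lost without control fed replicate 1 or 3 or Rheb fed replicate 1 or 4 (-0.63 to -0.43, adjusted p = 0.0594 to 0.147). It was lost too with further quantile normalisation (-0.57, adjusted p = 0.059) and with only the compared arrays fitted (adjusted p = 0.0793). Under TOR RNAi cpr-6 and cpr-3 were at -0.27 ± 0.20 and 0.35 ± 0.24, and whether the Rheb and TOR effects differ was not tested.

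In fasted worms some members were lower and others higher under the knockdowns. On TOR RNAi plates 4 of the 10 genes were lower and 2 higher than on control plates, where 10.2% of all genes were lower, 14.9% higher and 25.2% changed. On Rheb RNAi plates 5 were lower and 2 higher, where 9.04% of all genes were lower, 10.5% higher and 19.6% changed. The fasted control arrays serve both comparisons. Groups did not overlap for 4 genes under TOR RNAi and 8 under Rheb RNAi, where 25.9% and 14.9% of all genes did not. The median over the members was -0.36 under TOR RNAi and -1.24 under Rheb RNAi.

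Of the genes lower in fasted knockdown worms, cpr-1 was at 18.3% of control under TOR RNAi and 10.2% under Rheb RNAi (log2 -2.45 ± 0.28 and -3.29 ± 0.26, limma adjusted p = 2.01e-06 and 2.52e-09). cpr-9 was at 43.0% and 23.6% (adjusted p = 0.00207 and 1.11e-06). cpr-3 was at 48.6% and 33.9% (adjusted p = 0.00327 and 1.65e-05). In each of these genes the lower values came from arrays that, with the exception of TOR fasted replicate 3 for cpr-9, lay below all fasted control arrays. cpr-2 was at 36.3% and 24.8% (adjusted p = 0.0417 and 0.00398), and the TOR call was lost without any 1 of the 5 fasted control arrays or TOR fasted replicate 1 or 2 (-1.54 to -1.05, adjusted p = 0.0509 to 0.202), while without TOR fasted replicate 3, the brightest of its group, the value was -2.13. The cpr-2 call under TOR RNAi was also lost without the filter (adjusted p = 0.0588). It was lost too without the 2 arrays of highest 3′ to middle signal ratio (-1.19, adjusted p = 0.201). cpr-6 was lower under Rheb RNAi, at 32% (-1.64 ± 0.18, adjusted p = 5.26e-07), and at -0.37 ± 0.20 under TOR RNAi, where it was not called.

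cpr-4 and cpl-1 were higher in fasted knockdown worms, as they were in fed ones. cpr-4 was 3.29-fold higher under TOR RNAi and 2.38-fold higher under Rheb RNAi (limma, adjusted p = 3.95e-07 and 5.93e-06), with no overlap. cpl-1 was 1.68-fold and 1.33-fold higher (adjusted p = 0.000377 and 0.0225). The Rheb RNAi arrays of cpl-1 overlapped the control arrays, and the call was lost without control fasted replicate 2 or Rheb fasted replicate 1 or 4 (0.32 to 0.39, adjusted p = 0.0542 to 0.0912). This call was also lost with only the compared arrays fitted (adjusted p = 0.103). For cpz-1 the 4 knockdown values were 0.50 to 0.60 without a call. With arrays of one number as a block, and TOR numbers as blocks of their own, cpz-1 was higher under Rheb RNAi. The values were 0.57 in fasted (adjusted p = 0.00176) and 0.55 in fed worms (adjusted p = 0.00163), where 41.3% and 52.8% of all genes were called. In fed worms cpz-1 was also called without control fed replicate 1 or 3 or Rheb fed replicate 4 (0.68 to 0.71, adjusted p = 0.0428 to 0.0469). cpr-5 stood at 0.22 ± 0.54 under TOR and 0.57 ± 0.49 under Rheb RNAi and cpr-8 at -0.35 ± 0.53 and -0.93 ± 0.49, none of them called, at signals near the array medians or below.

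**Figure D3:**
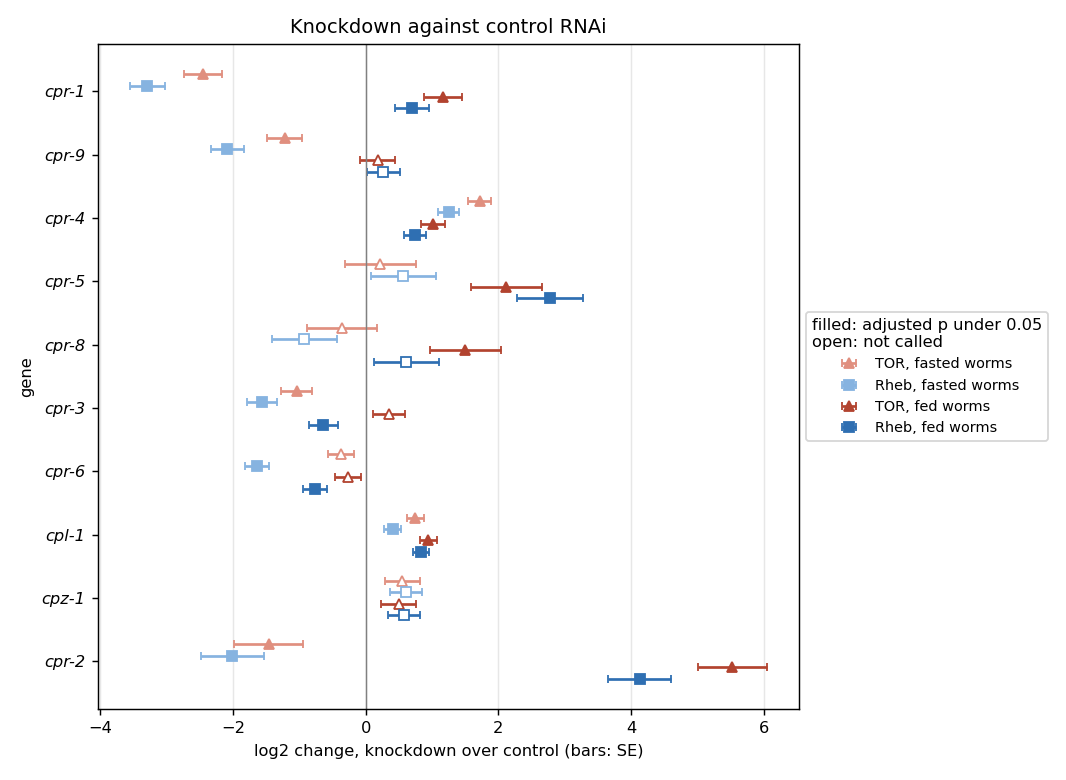
Log2 change of each knockdown over control RNAi in fasted worms (pale symbols) and fed worms (dark symbols) for the 10 genes, triangles for TOR and squares for Rheb, with bars of 1 SE; filled symbols have a limma adjusted p under 0.05. cpr-1 and cpr-2 lie right of 0 in fed and left of 0 in fasted worms, cpr-4 and cpl-1 lie right of 0 in both, and the cpr-6 symbols are all left of 0.

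The order of the 6 groups was not the same for every member. For cpr-1 it was TOR fed, Rheb fed, control fed, control fasted, TOR fasted and Rheb fasted from high to low, and only the neighbours TOR fed and Rheb fed, and TOR fasted and Rheb fasted, overlapped. cpr-4 had TOR fed, Rheb fed, control fed, TOR fasted, Rheb fasted and control fasted, so that fasted control worms were the lowest, with the same 2 pairs of knockdown groups overlapping. cpl-1 had both fasted knockdown groups above fed control worms, although fasted Rheb RNAi and fed control worms overlapped. For cpr-2 fed control worms were the lowest of the 6 groups, overlapping fasted Rheb RNAi worms. For cpr-6 fed control worms were the highest and each group overlapped the next down to fasted TOR RNAi worms, while fasted Rheb RNAi worms stood apart. For cpr-3 the order ran TOR fed, control fed, Rheb fed and control fasted, which overlapped in turn, then TOR fasted and Rheb fasted, which did not.

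For cpr-5, cpr-8 and cpr-9 each fed group overlapped the next in order, each fasted group overlapped the next, and all fed arrays lay above all fasted ones. Groups further apart in that order did not always overlap: fed Rheb RNAi worms lay above fed control worms for cpr-5, and fasted Rheb RNAi worms lay below fasted control worms for cpr-8 and cpr-9. Each neighbouring pair of cpz-1 groups overlapped, although all fasted Rheb RNAi arrays (4136 to 6553) lay above all fasted control arrays (2083 to 3968). The span between the highest and lowest group mean was 93.8-fold for cpr-5, 59.4-fold for cpr-9, 46.2-fold for cpr-2, 19.6-fold for cpr-8, 19.4-fold for cpr-4, 8.06-fold for cpr-3, 6.44-fold for cpr-6, 2.53-fold for cpl-1 and 1.69-fold for cpz-1. The spread within groups, as a pooled SD of log2 values, was 0.16 for cpl-1, 0.24 for cpr-4 and 0.27 for cpr-6, and 0.78 to 0.81 for cpr-2, cpr-5 and cpr-8. The 3 genes of widest spread were also those read at dim signals in some groups.

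Over the 24 arrays the members did not all vary together. cpr-1 and cpr-9 were the most alike, with a Pearson correlation of 0.98 of log2 values, and 0.54 for the deviations from group means. cpr-1 and cpr-3 had 0.90 over all arrays and -0.21 within groups. cpz-1 was at -0.10 to 0.40 with the cathepsin B-like genes and at 0.70 with cpl-1, and 0.71 with cpl-1 within groups. All these values share the same 24 arrays and their normalisation, and they are descriptions.

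The adjacent genes cpr-5 and cpr-8 had a correlation of 0.90 over the 24 arrays and 0.67 within groups. In fed control worms both were brightest on replicate 4 (1405 and 572) and dimmest on replicates 1 and 3. In fed Rheb RNAi worms they parted: replicate 2 was the brightest for cpr-5 (4121) and the second lowest for cpr-8 (146). The other neighbour of cpr-5, W07B8.4, also a papain-family gene, was dim in all groups. It was higher in fed TOR and fed Rheb RNAi worms than in fed control worms (1.03 and 1.29), and with fasting on Rheb RNAi plates it was lower (-1.04). In the WBcel235 annotation 8 of the 10 members lie on one chromosome, and cpr-6 and cpz-1 lie on others.

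**Figure D4:**
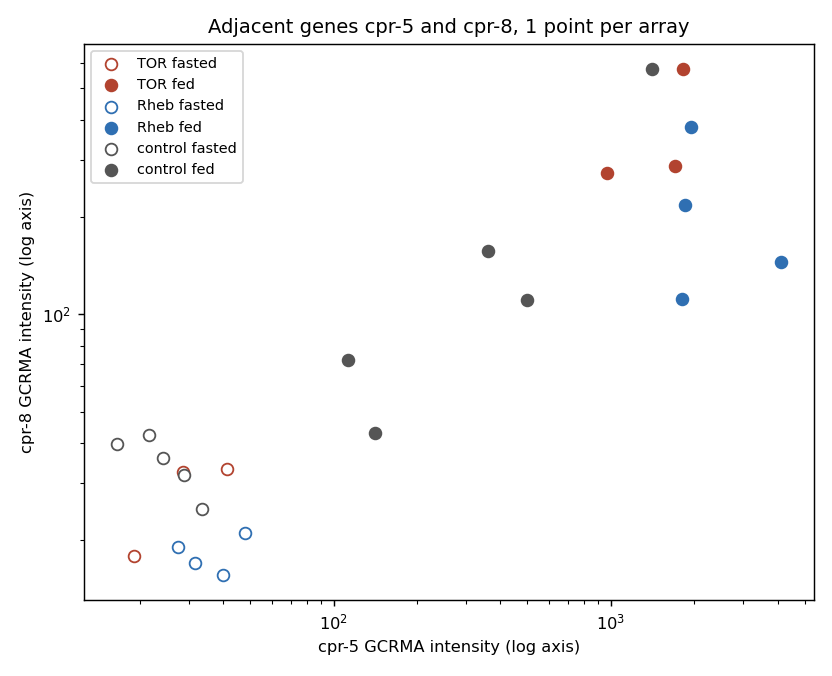
GCRMA intensity of cpr-8 against that of its neighbour cpr-5 on 24 arrays (both axes logarithmic), open circles for fasted and filled circles for fed worms, coloured by RNAi plate. No fasted array is above 48.1 for cpr-5 or 42.3 for cpr-8, the fed control arrays run from 113.1 to 1405 for cpr-5, and the fed knockdown arrays lie between 969 and 4121 for cpr-5.

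The genes outside the family whose pattern over 24 arrays was most like the median profile of the 10 members were ltah-1.2, acox-1.5 and txt-9 (Pearson correlation 0.95 each), C34H4.1 (0.95) and lec-6 (0.94), a galectin gene. lec-6 averaged 1153 ± 438 in fasted and 11892 ± 549 in fed TOR RNAi worms (SD, n = 3 each), 711 ± 157 and 8246 ± 2230 in fasted and fed Rheb RNAi worms (n = 4 each), and 1532 ± 312 and 11338 ± 1466 in fasted and fed control worms (n = 5 each). For single members the most alike gene was the lysozyme gene lys-4 for cpr-1 (0.98), Y105C5B.15 for cpr-9 (0.98), papl-1 for cpr-6 (0.98), the C-type lectin gene clec-41 for cpr-3 (0.96), C31H5.6 for cpl-1 (0.96), spp-23 for cpr-5 (0.94), hrg-7 for cpr-8 (0.93), F49C12.7 for cpr-4 (0.93), T07D4.2 for cpz-1 (0.89) and pfas-1, of purine synthesis, for cpr-2 (0.86). lys-4 averaged 195 ± 66.1 in fasted and 7064 ± 2403 in fed TOR RNAi worms (SD, n = 3 each), and 1009 ± 159 in fasted and 3806 ± 487 in fed control worms (n = 5 each). pfas-1 averaged 907 ± 96.2 in fed TOR RNAi worms (n = 3) and 663 ± 287 in fed Rheb RNAi worms (n = 4), against 295 ± 39.1 in fed control worms (n = 5), so its lowest fed mean was in control worms, as for cpr-2.

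Of the other papain-family and legumain genes, 14 of 18 on the array were tested. Under fasting 4 fell in TOR RNAi worms and 7 in Rheb RNAi worms and none rose, and in control worms 2 fell and 1 rose, with medians of -0.16, -0.43 and -0.10. Y40H7A.10 fell on all 3 kinds of plate, with log2 changes of -4.17, -4.57 and -2.25 under TOR, Rheb and control RNAi, with means of 111 ± 25.7 in fasted and 1956 ± 213 in fed TOR RNAi worms (SD, n = 3 each) and 335 ± 40.5 in fasted and 1611 ± 337 in fed control worms (n = 5 each). F32H5.1 also fell, with log2 changes of -1.92, -2.26 and -1.11. tag-196, the cathepsin F gene, rose by 0.60 in fasted control worms (limma, adjusted p = 0.0289), at 2378 ± 595 against 1532 ± 213 in fed control worms, and was higher in fed TOR and fed Rheb RNAi worms (1.05 and 1.07). cpz-2, the second cathepsin Z gene, fell, with log2 changes of -1.15 and -0.94 in fasted TOR and Rheb RNAi worms and was at 0.28 in control worms. Its response differed from that of control worms by -1.43 under TOR RNAi and -1.23 under Rheb RNAi (adjusted p = 0.0162 for each). For cpz-1 the same terms were 0.06 and 0.02, and the difference between the 2 genes was not tested. lgmn-1, the legumain gene, whose product cuts after asparagine, fell by 0.70 in fasted Rheb RNAi worms and was at -0.23 and -0.11 in TOR RNAi and control worms.

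The cystatin genes cpi-1 and cpi-2 encode inhibitors of cysteine cathepsins. cpi-1 rose by 0.46 in fasted control worms (limma, adjusted p = 0.0435), at 16156 ± 3832 against 11561 ± 1500 in fed control worms (SD, n = 5 each), and was at 0.31 and 0.32 under TOR and Rheb RNAi without a call. cpi-2 was at -0.04, 0.05 and 0.00 under TOR, Rheb and control RNAi and was not called. Of the 8 cystatin and serpin genes tested, 2 rose in fasted control worms, cpi-1 and the serpin gene srp-2 (0.63, adjusted p = 0.0307), and 1, the serpin gene srp-3, fell in fasted Rheb RNAi worms (-1.03). The serpin gene srp-1 was higher under either knockdown in both feeding states, at 1.57 and 1.47 in fasted and 1.89 and 2.18 in fed TOR and Rheb RNAi worms.

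The aspartyl proteases, the other large class of acid proteases in the worm gut, showed a like count. Of 10 tested, 8 fell in fasted TOR RNAi worms, 8 in Rheb RNAi worms and 7 in control worms, and none rose, with medians of -3.07, -2.66 and -1.05. asp-1, a gut protease gene, fell, with log2 changes of -2.93, -2.45 and -2.27 under TOR, Rheb and control RNAi. asp-3 fell, with log2 changes of -3.82, -3.71 and -0.91, and its responses under TOR and Rheb RNAi differed from control by -2.91 and -2.80. asp-17 fell, with log2 changes of -6.02, -6.37 and -1.19. asp-4, a cathepsin D-like gene, fell by 0.86 in control worms and was at -0.29 and -0.35 under TOR and Rheb RNAi. In fed worms under Rheb RNAi 7 of the 10 aspartyl protease genes were lower and none higher than on control plates. Of the 10 cysteine cathepsin members 2 were lower and 5 higher, and the difference between the 2 lists was not tested.

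Of 12 carboxypeptidase and other lysosomal peptidase genes, 7, 5 and 6 fell with fasting under TOR, Rheb and control RNAi, with ctsa-1.2, a serine carboxypeptidase gene, at -7.43, -5.69 and -5.22. Of 24 other lysosomal hydrolases, 7, 8 and 9 fell and 1, 1 and 2 rose. Among them aagr-1, an acid alpha-glucosidase gene, fell, with log2 changes of -3.07, -2.28 and -2.51, and hex-1, a hexosaminidase gene, rose by 0.83, 0.74 and 1.62. Of 21 genes of lysosomal membrane proteins and transport, 3 rose and 1 fell in fasted control worms, lmp-1 (0.80), ncr-2 (0.84) and ncr-1 (0.67) rising and cln-3.1 falling (-1.61). lmp-1, a LAMP-like membrane protein gene, was at 0.18 and 0.27 in TOR and Rheb RNAi worms without a call.

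Of 9 transcription factor genes with roles in gut and lysosome, 1 rose in fasted control worms, hlh-30, which encodes the worm homologue of TFEB (0.97, limma adjusted p = 0.0399). In fasted TOR RNAi worms 1 fell, elt-2, and in fasted Rheb RNAi worms 2 fell, elt-2 and pqm-1 (-0.96). elt-2, the GATA factor of the intestine, fell, with log2 changes of -0.74 and -0.84 in fasted TOR and Rheb RNAi worms and was at -0.26 in control worms. It was higher in fed TOR and Rheb RNAi worms, by 0.65 and 0.50. Among the 11 intestine markers, 5, 4 and 2 fell with fasting under TOR, Rheb and control RNAi and none rose. act-5, the actin of the microvilli, fell, with log2 changes of -2.10, -1.36 and -1.96. ges-1, the gut esterase gene, fell, with log2 changes of -1.08 and -1.65 under TOR and Rheb RNAi and was at -0.22 in control worms.

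**Figure D5:**
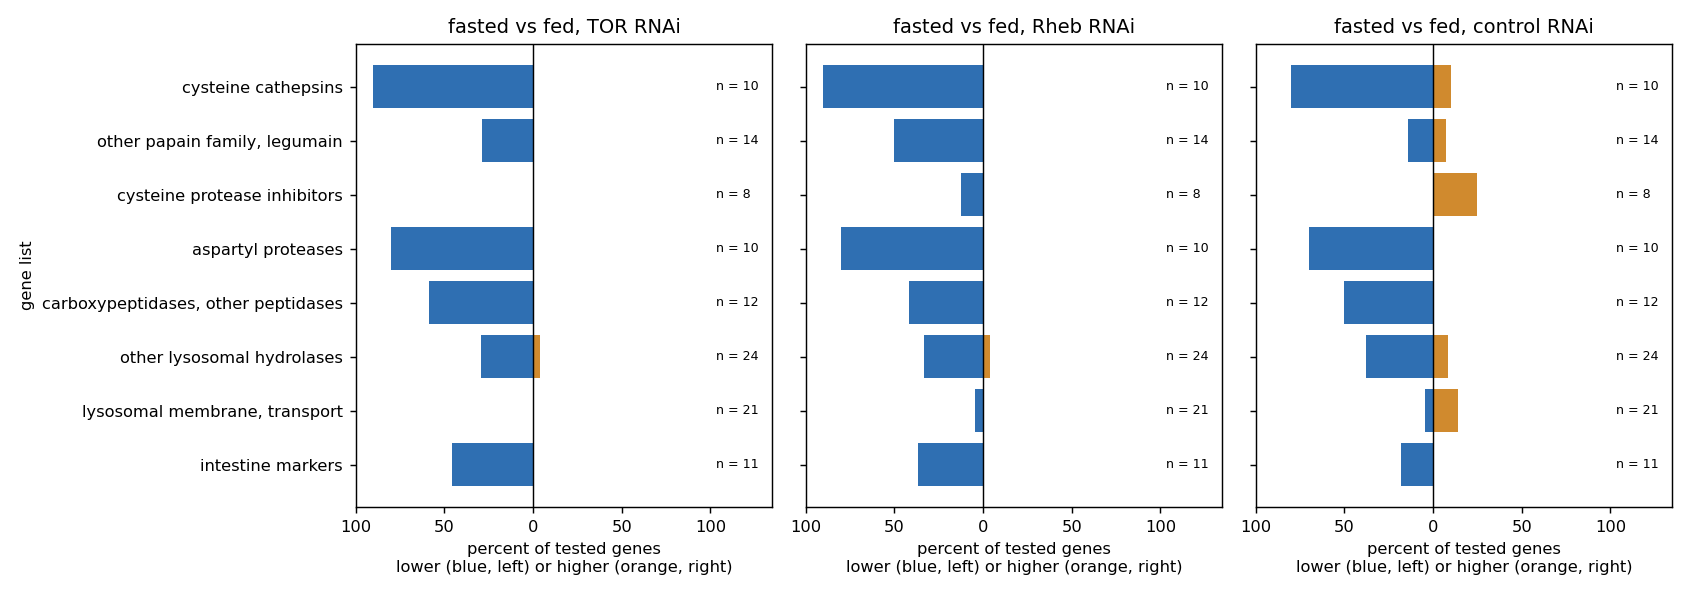
Share of the tested genes of 8 lists (n beside each row) that fell (bars to the left, in blue) or rose (bars to the right, in orange) in fasted over fed worms under TOR, Rheb and control RNAi, by a limma adjusted p under 0.05. The lists of the cysteine cathepsin members and of the aspartyl proteases have the longest bars to the left on each kind of plate.

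Markers of other tissues differed between groups too. With fasting, 6 of 12 muscle genes fell in Rheb RNAi worms, with summed intensities of 36290 to 55500 in fasted against 67520 to 91810 in fed worms, and 2 fell in TOR RNAi worms (35160 to 46740 in fasted against 40080 to 62750 in fed worms). On control plates 2 fell and 1 rose (27670 to 39000 in fasted against 36210 to 46780 in fed worms). In fed worms, of 12 muscle genes, 11 were higher in fed Rheb RNAi worms, with a summed intensity of 67520 to 91810 against 36210 to 46780 in fed control worms, and 1 was higher in fed TOR RNAi worms (40080 to 62750). Of 12 neuronal genes, 9 were higher in fed TOR and 9 in fed Rheb RNAi worms, with sums of 12350 to 13510 and 10810 to 13100 against 6995 to 8778. Of 12 germline and oocyte genes, 9 were lower under each knockdown in fed worms, with sums of 26900 to 38690 under TOR RNAi and 33650 to 47240 under Rheb RNAi against 49590 to 67160. Of 11 epidermal genes, 6 fell in fasted control worms, with sums of 3393 to 5092 against 6233 to 11160 in fed control worms, and 4 of the neuronal genes rose there. The epidermal genes fell for 3 of 11 in fasted Rheb RNAi worms (2759 to 4013 in fasted against 3983 to 5977 in fed worms) and 1 of 11 in fasted TOR RNAi worms. In fed TOR RNAi worms 5 of 11 were lower than in fed control worms (2747 to 3637 against 6233 to 11160), and in fed Rheb RNAi worms 3 were lower and 1 higher. None of these markers was at 0 in any group, which for these intensities does not show detection. Their part in the cathepsin values was not tested.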

How the data were processed

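Messenger RNA was measured in 24 worm samples in 6 groups, 1 array each. The deposited values are GCRMA intensities on a linear scale, per the submitters' processing notes; the version of GCRMA and the array's genome build are not given in the sources used here, while GeneSpring GX 7.3.1 is named by the series' design text. Since GCRMA equalises the distributions of the arrays after removing background, it hides any shift that all transcripts share.

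Tests used log2 of the intensities. The array holds 22625 probe sets, of which 77 are its own controls. The annotation gives 1 gene for 20766, which were used, more than 1 for 887 and no gene for 895. The probe set of highest mean stood for a gene. All 24 arrays were fitted with 6 group means by limma (version 3.58.1, R 4.3.3), which moderates variances over the 12277 genes, and p-values were adjusted by the Benjamini-Hochberg method within each of 10 comparisons. Group sizes are 3 to 5 arrays, and their number limits the precision. No column of the deposited file was left out. Gene order comes from the RefSeq table of assembly WBcel235, used for names and neighbours only.

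The 10 members, the gene lists and the tests were chosen with earlier results of these data known. Named genes are the 10 members, the RNAi targets, the 5 genes most like the median profile and the 1 most like each member, and from each list up to 4 genes of smallest p in fasted control worms, with genes that ran against their list. W07B8.4, lgmn-1, cpi-2, srp-1 and pqm-1 fall outside this rule and were chosen after their values were seen.

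Deviations from group means of same-numbered arrays correlated at 0.508 to 0.602 between fasted and fed control worms. The values were 0.44 to 0.734 for Rheb RNAi and 0.503 to 0.568 for TOR RNAi. Between Rheb and control RNAi they were 0.227 to 0.663 in fed or fasted worms. These numbers were taken as pairs only in the alternatives with a replicate block. The main fit held no block, so its p-values do not use the pairing. TOR and control numbers did not pair (-0.186 to 0.24). Tested on simulated data of 12277 genes, the control fasting comparison found 97% of true 4-fold and 34% of true 1.5-fold changes, and the Rheb minus control response found 88% and 15%. The simulated noise was independent between arrays, without the correlation of same-numbered arrays, and few genes were changed. These shares therefore need not hold for the real arrays. Alternatives were 2 further variance models, 2 scalings, 2 filters, a floor, 2 other rules for a gene with several probe sets, fits restricted to the arrays being compared, 2 replicate blocks, leaving out the 2 arrays of highest 3′ to middle signal ratio (Rheb fed replicate 3 and TOR fasted replicate 2), and leaving out each array in turn.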

Additional observations from a re-analysis of the deposited data

Results flagged for a closer look

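Of 40 sets of 4 or 5 arrays of 1 gene, 3 held an array far from the others, and chance gives about 1 in 20. cpr-5 in fed Rheb RNAi worms was highest on replicate 2, whose gap to the next array was 0.910 of the range of log2 values. cpr-3 in fasted control worms was highest on replicate 3, with a gap of 0.716 of the range. cpr-4 in fed control worms was lowest on replicate 4, with a gap of 0.747 of the range.

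The fasting response differed from that of control worms by an interaction term in limma for 4 genes under each knockdown. Under TOR RNAi the log2 difference was -3.62 for cpr-1, -6.99 for cpr-2, -1.39 for cpr-3 and -1.40 for cpr-9. Under Rheb RNAi it was -3.99 for cpr-1, -6.14 for cpr-2, -0.88 for cpr-6 and -2.35 for cpr-9. Both sets use the same control arrays.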

How the results depend on the processing

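Of 100 member values, 61 were called, 51 of them under every alternative run, and none of the 61 changed sign. The 10 others lost their call under at least 1 alternative: cpl-1 with fasting under TOR and control RNAi and under Rheb RNAi in fasted worms, cpr-1 and cpr-3 under Rheb RNAi in fed worms, cpr-8 under TOR RNAi in fed worms, cpr-2 under TOR RNAi in fasted worms, cpr-3 and cpr-9 in the TOR minus control response and cpr-6 in the Rheb minus control response. Of 3640 repeats, 3492 kept direction and side of the threshold, 98 lost and 24 gained a call, and 26 turned the sign of an uncalled value; the cause was not tested.

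Values that turned were cpz-1 with fasting under TOR RNAi (0.11 without the 2 arrays of highest 3′ ratio, -0.37 to 0.11 without 1 array), cpr-9 in fed TOR RNAi worms (-0.0031 with arrays centred on their medians), cpr-5 in fasted TOR RNAi worms (-0.053 to 0.50 without 1 array), the TOR minus control response of cpr-6 (0.027 with arrays centred, -0.20 to 0.033 without 1 array) and of cpz-1 (-0.19 to 0.29), the Rheb minus control response of cpz-1 (-0.13 to 0.14), and the TOR minus Rheb response of cpr-8 (-0.65 to 0.025) and cpz-1 (-0.21 to 0.26).

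Member counts moved from 7 to 4 of 6 tested for Rheb RNAi in fed worms without probe sets that may read related transcripts. The members cpr-3, cpr-5, cpl-1 and cpz-1 have no other probe set and dropped out there. Counts moved from 4 to 2 in the TOR minus control response with arrays centred or without the 2 arrays of highest 3′ ratio (2 to 5 without 1 array). In the TOR minus Rheb response they moved from 0 to 1 with TOR numbers as a replicate block of their own. With a replicate block shared by all plates, all-gene counts for fasting were 1298, 2960 and 3883 under TOR, Rheb and control RNAi, and 1769, 3822 and 4697 with TOR numbers as a replicate block of their own. For Rheb RNAi they were 5065 in fasted and 6487 in fed worms with that second block, and 4289 in fasted worms with the shared one. For TOR RNAi they were 5951 in fasted and 6655 in fed worms with the shared block; the second was not run, since its TOR blocks hold no control array. In the Rheb minus control, TOR minus control and TOR minus Rheb responses the shared and the second block gave 1417 and 2148, 719 and 1118, and 106 and 157. Of the block calls given with their comparisons, the shared block did not make those of cpr-4 in the TOR minus control and cpr-6 in the TOR minus Rheb response. It made the others. It also called cpz-1 under TOR RNAi (0.44 fasted, 0.38 fed) and cpr-6 (-0.40, fasted), where TOR and control numbers do not pair. It changed no other call. Without the 2 arrays of highest 3′ ratio 1748 genes were called for TOR RNAi in fasted worms and 185 in the TOR minus control response. Without probe sets that may read related transcripts 24 were called in the TOR minus Rheb response. Without 1 array the counts were 1733 (without TOR fasted replicate 2) to 3561 for TOR RNAi in fasted worms and 2570 (without TOR fed replicate 3) to 4350 in fed worms. They were 192 to 306 in the TOR minus control response (192 without TOR fasted replicate 2, 193 without TOR fed replicate 3) and 25 to 59 in the TOR minus Rheb response (without Rheb fasted replicates 2 and 4, each in turn).

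Centring arrays on their medians moved the all-gene median to -0.15 for either knockdown in fed worms, 0.17 for the Rheb minus control and 0.13 for the TOR minus control response, and the share of called genes that were higher to 35.8%, 37.1%, 40.1% and 43.2% for TOR fed, Rheb fed and these 2 responses, against 59.6%, 58.1%, 21.8% and 28.7%; with fasting it was 39.6% against 27.2% under Rheb RNAi and 42.9% against 58.2% in control worms. Signals of cpr-2 in fed control worms and on most fasted knockdown arrays, and of cpr-5 and cpr-8 in fasted worms, were near or below the array medians. This limits how well their folds are known.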
